A study of Mus musculus with 8 samples.

Results

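The miRNAs encoded between Dlk1 and Dio3, a large imprinted miRNA group of the mouse, were followed in the ventral lumbar spinal cord of mice that carry a mutant SOD1 gene in skeletal muscle. Members were taken by name: every mouse assay of the array whose miRNA number belongs to a list of 45 miRNA numbers mapped to this locus. Of the 375 miRNA assays on the array, 46 were members, and they covered 37 of the 45 numbers. The list separates 13 assays that lie near Meg3 and Rtl1 (called the Meg3 and Rtl1 side) from the other 33 assays, most of which belong to the long hairpin array that runs from miR-379 to miR-410.

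The study compared 4 samples of wild type mice with 4 samples of MLC/SOD1[G93A] mice, all on the FVB strain and all 4 months old. In MLC/SOD1[G93A] mice the mutant SOD1 gene is driven by the myosin light chain promoter, which is active in skeletal muscle, so the tissue that was measured is not the tissue in which the transgene is meant to be expressed. Total RNA of each sample was read on TaqMan Array Mouse MicroRNA Card A, a plate of quantitative PCR assays, and the question was whether miRNAs of the spinal cord differ between the genotypes. The transgene itself has no assay on the card, so the labels could not be checked against it. Columns of the wild type mice carry the numbers of the sample labels, while those of the MLC/SOD1[G93A] mice carry the numbers 5a to 8a, which match the group but no single labelled sample, and they are called samples 5a, 6a, 7a and 8a here.

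The Dlk1-Dio3 domain is controlled by parental imprinting: the protein genes Dlk1, Rtl1 and Dio3 are expressed from the paternal chromosome, and the noncoding RNAs Meg3, Rian and Mirg, with the miRNAs, from the maternal chromosome. The miRNAs near Rtl1 lie antisense to it, and they pair perfectly with its transcript. Many miRNAs of the domain are known for their expression in brain and in neurons, where several of them respond to neuronal activity. In bulk tissue, fewer cells of a type and less RNA per cell cannot be told apart.

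By name, 45 of the 46 assays matched 38 miRNA genes of RefSeq (mouse build GRCm38.p6), and all 38 lay between Dlk1 and Dio3 on chromosome 12, on the plus strand. In gene order the Meg3 and Rtl1 side ran from Mir770 (position 1), which overlaps Meg3, to Mir370 (position 11), and the hairpins from Mir379 to Mir410 took positions 12 to 38. RefSeq placed 9 of the 38 genes within Rtl1, 1 within Rian and 5 within Mirg. Mir493, at position 2, lies among the Rtl1 genes but the list counts it with the other members. No gene was matched for miR-496.

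The arm of the hairpin that an assay reads was given by name for 17 of the 46 assays, and all 17 matched a mature sequence. The arms of 4 hairpins and 1 further arm are printed here from RefSeq, 5′ to 3′, because the results on single members turn on them. Capitals mark the seed, bases 2 to 8, with which a miRNA recognises its targets.
miR-369-5p: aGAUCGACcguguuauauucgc
miR-369-3p: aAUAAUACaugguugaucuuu
miR-434-5p: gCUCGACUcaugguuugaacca
miR-434-3p: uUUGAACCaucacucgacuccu
miR-337-5p: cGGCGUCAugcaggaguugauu
miR-337-3p: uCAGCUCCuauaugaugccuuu
miR-409-5p: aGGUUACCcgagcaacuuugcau
miR-409-3p: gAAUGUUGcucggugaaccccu
miR-323-3p: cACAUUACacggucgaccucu
The miR-369 arms come from chr12:109743431-109743452 and chr12:109743466-109743486 (GRCm38.p6, plus strand), in a hairpin that lies within Mirg, next to the last gene of the group. G and C make up 23.8% of miR-369-3p and 45.5% of miR-369-5p.

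For miR-136, miR-127, miR-379, miR-411 and miR-376c the deposited name gives no arm, so their hairpins are shown by both arms where RefSeq gives both.
miR-136-5p: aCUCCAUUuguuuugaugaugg
miR-136-3p: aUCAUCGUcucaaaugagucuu
miR-127-5p: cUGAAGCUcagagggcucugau
miR-127-3p: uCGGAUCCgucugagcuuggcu
miR-376c-5p: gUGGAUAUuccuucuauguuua
miR-379-5p: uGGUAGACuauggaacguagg
miR-379-3p: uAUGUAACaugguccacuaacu
miR-411-5p: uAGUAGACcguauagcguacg
miR-411-3p: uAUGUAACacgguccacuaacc
Over the matched genes there were 73 mature sequences with 70 different seeds. Only 3 seeds occurred more than once, each in a pair: AUGUAAC in miR-379-3p and miR-411-3p, GGUUGUC in miR-494-5p and miR-410-5p, and UGGAUAU in miR-376c-5p and miR-376b-5p. Of the seeds of the arms that the card names, none was shared.

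A Ct is the PCR cycle at which an assay crosses its threshold, so a Ct lower by 1 cycle stands for about a doubling, and a Ct over 35 was taken as missing. The number of miRNAs measured ranged from 239 to 256 per sample. Level is given as log2 expression relative to U6, a small nuclear RNA: the 4 U6 wells of a sample were averaged and the Ct of the miRNA was subtracted. The 4 U6 wells of a sample lay 0.39 to 1.05 cycles apart in 6 samples, 2.14 cycles apart in sample 7a and 1.97 cycles apart in sample 8a. Wild type sample 1 and sample 7a had the lowest medians over all miRNAs measured in every sample, at -11.86 and -11.98, against -10.64 to -9.78 in the other 6 samples. A second reference, the global mean, averages the Ct over the 190 miRNAs that no sample missed, and both references are named in the study's methods. Moving from U6 to the global mean raised the log2 changes between the groups by 0.35 at the median of the 227 miRNAs tested, which is larger than the median change of the members themselves.

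Most of the locus was measurable in the ventral spinal cord. Of the 46 member assays, 22 were measured in all 8 samples, 9 in 7 samples and 4 in 6 samples. The count of members measured was 35, 35, 38 and 36 in wild type samples 1 to 4, and 33, 35, 34 and 33 in samples 5a, 6a, 7a and 8a. For wild type these counts averaged 36 ± 1.41 (SD, n = 4). For MLC/SOD1[G93A] they averaged 33.75 ± 0.96 (SD, n = 4), and the groups touched at 35. Over all miRNAs of the card the count averaged 248 ± 7.87 in wild type and 242.75 ± 4.19 in MLC/SOD1[G93A] (SD, n = 4 each). All 13 assays of the Meg3 and Rtl1 side were measured in at least 4 samples. The 5 members never measured were miR-377, miR-493, miR-654-3p, miR-654-5p and miR-679, which the list counts with the other members. By position, however, Mir493 lies among the Rtl1 genes. Over the whole card, 81 of 375 miRNA assays were never measured.

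**Figure D1:**
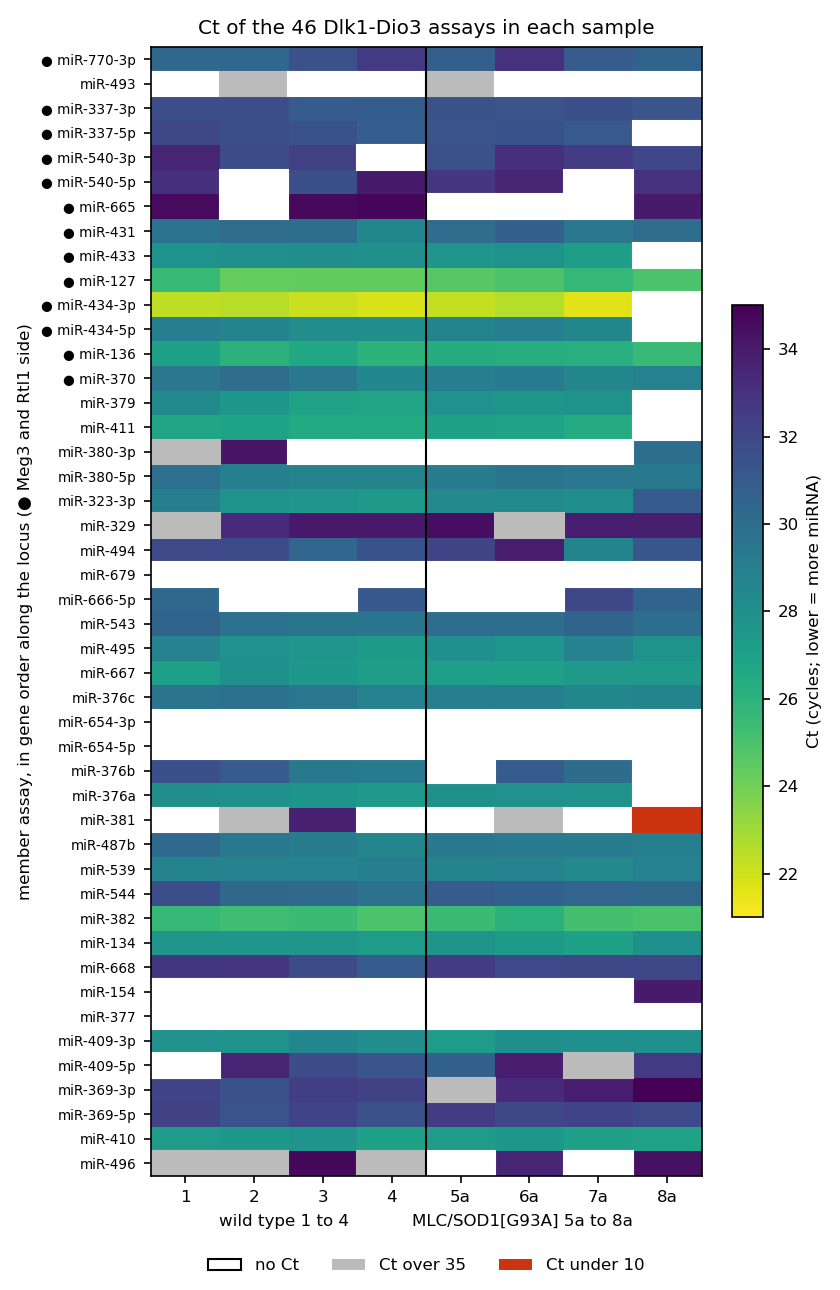
Ct of the 46 member assays (rows, in gene order along the locus, with miR-496, which has no matched gene, last) in the 8 samples (columns). Colour gives the Ct in cycles, grey cells have a Ct over 35, white cells have no Ct and the red cell is a Ct of 1.07. Sample 8a has white cells for 7 assays that all 7 other samples measured.

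Sample 8a lacked members that every other sample measured. In it, 12 assays had no Ct although each of the other 7 samples had a Ct of 35 or less, and 7 of these 12 were members: miR-337-5p, miR-376a, miR-379, miR-411, miR-433, miR-434-3p and miR-434-5p. That was 7 of 29 members compared (24.1%) and 5 of 174 other miRNAs (2.87%). Each of the other 7 samples lost between 0 and 2 assays by the same count.

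The members lost in sample 8a included the most abundant of the locus. miR-434-3p had a Ct between 21.62 and 22.57 in the 7 other samples, miR-411 between 26.37 and 26.97, and miR-433 between 27.23 and 28.06. Levels this high lie far from the limit of 35. In the list of assays, which is in order of miRNA number, most lost wells fell within 1 stretch. Between miR-337-5p and miR-434-5p, 7 of 15 members and 4 of 19 other miRNAs had no Ct, against 1 of 169 outside this stretch. The ends of the stretch were set by the first and last lost members, so these counts are a description and no test. Other assays of the stretch, such as miR-376c and miR-382, were read in sample 8a. The place of each well on the card was not analysed here, and its part in the result was not tested.

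The same sample had wells with an unusually early Ct. miR-381 had a Ct of 1.07 in sample 8a, against 33.73 in wild type sample 3, 35.64 and 36.00 in wild type sample 2 and sample 6a, and no Ct in the others. miR-380-3p had a Ct of 29.95 in sample 8a, against 34.24 and 36.96 in wild type samples 2 and 1 and no Ct elsewhere. Over all miRNAs, 4 wells of sample 8a and 1 well of wild type sample 3 were more than 4 cycles below every other sample. miR-154 was measured in sample 8a alone, at 34.01. Neither miR-381, miR-380-3p nor miR-154 entered a test, since a miRNA was tested only where at least 3 samples of each group had measured it.

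That filter kept 34 members, 12 of the Meg3 and Rtl1 side and 22 others, out of 227 miRNAs. The 12 members left out were the 5 never measured and miR-154, miR-376b, miR-380-3p, miR-381, miR-496, miR-665 and miR-666-5p. miR-376b had 4 wild type samples (Ct 31.56, 31.00, 29.35 and 29.25) but, in the transgenic group, only samples 6a and 7a (30.90 and 30.04). miR-665, near Rtl1, had a Ct of 34.61, 34.66 and 34.78 in wild type samples 1, 3 and 4 and of 33.97 in sample 8a, so it was close to the limit wherever it was seen.

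The levels of the tested members spanned more than 11 cycles. At the top stood miR-434-3p, at a mean of -4.17 ± 0.49 relative to U6 (SD, n = 7), which ranked 3 of the 227 miRNAs tested. It was followed by miR-127, at -6.83 ± 1.06 (SD, n = 8), which ranked 20. Both derive from hairpins antisense to Rtl1. Next came miR-382 at -7.36 ± 0.56 (SD, n = 8), miR-136 at -8.22 ± 0.76 (SD, n = 8), miR-411 at -8.67 ± 0.54 (SD, n = 7) and miR-410 at -9.29 ± 0.46 (SD, n = 8). The lowest tested member was miR-329, at -15.92 ± 0.65 (SD, n = 6). Such an order also holds differences in how well each assay amplifies.

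Most neighbours in this order differed by less than the spread of their difference over samples. That spread describes the samples and is no test of the mean levels. Of 33 pairs of neighbours, 5 differed by more than the SD of their difference over samples, and 3 kept the same sign in every sample that measured both. The 3 were miR-434-3p over miR-127, by 2.64 ± 0.75 cycles (SD, n = 7), miR-382 over miR-136, by 0.86 ± 0.36 (SD, n = 8), and miR-411 over miR-410, by 0.67 ± 0.30 (SD, n = 7). Between miR-410 and miR-495, ranked 6 to 13 among the tested members, no neighbours differed by more than that SD.

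**Figure D2:**
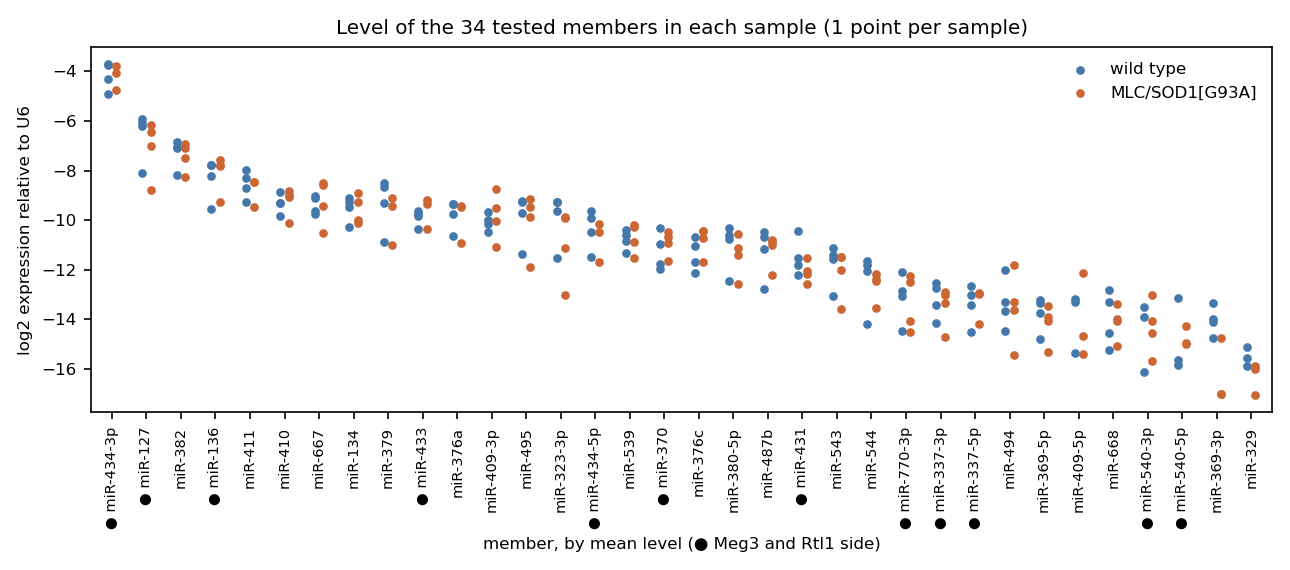
Log2 expression relative to U6 (vertical axis) of the 34 tested members, ordered by mean level, with 1 point per sample in blue for wild type and orange for MLC/SOD1[G93A]. Dots before a name mark the Meg3 and Rtl1 side, and for most members the points of the groups overlap.

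Between the genotypes, most members changed by less than their standard error. Relative to U6, the median log2 change of the 34 tested members (MLC/SOD1[G93A] minus wild type) was -0.16, with a range from -2.23 to 0.56, beside a median of -0.31 over all 227 miRNAs. Below 0 were 22 of the 34 members (64.7%), where 77.5% of all miRNAs were. The change was smaller than its own standard error for 30 of the 34 members, whose median standard error was 0.65.

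No member passed the test across the card. With limma and Benjamini-Hochberg adjustment over 227 miRNAs, 0 members and 0% of all miRNAs were called, and the lowest adjusted p of a member was 0.640. At an unadjusted p under 0.05, 1 member (miR-369-3p) was lower and 0 were higher, where 2.2% of all miRNAs were lower and 0.441% higher. The groups did not overlap for 1 member, which was lower, where 1.32% of all miRNAs did so. With an exact Mann-Whitney test, 0 members and 0% of all miRNAs were lower or higher at an unadjusted p under 0.05.

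With the global mean as the reference, most changes of the members lay above 0. Their median change was 0.21, beside 0.04 over all 227 miRNAs, and 7 of 34 members lay below 0 (20.6%), where 46.3% of all miRNAs did. At an unadjusted p under 0.05, 1 member was lower (5.73% of all miRNAs) and 2 were higher (3.52%), and after adjustment 0 members and 0% of all miRNAs were called, with a lowest adjusted p of 0.427 in limma. The groups did not overlap for 1 member that was lower and 2 that were higher, where 2.2% of all miRNAs did so in each direction. The median of the members stood above the median of all miRNAs by 0.15 relative to U6 and by 0.17 relative to the global mean. A change of reference shifts all miRNAs of a sample alike, so the second gap is not a separate result.

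**Figure D3:**
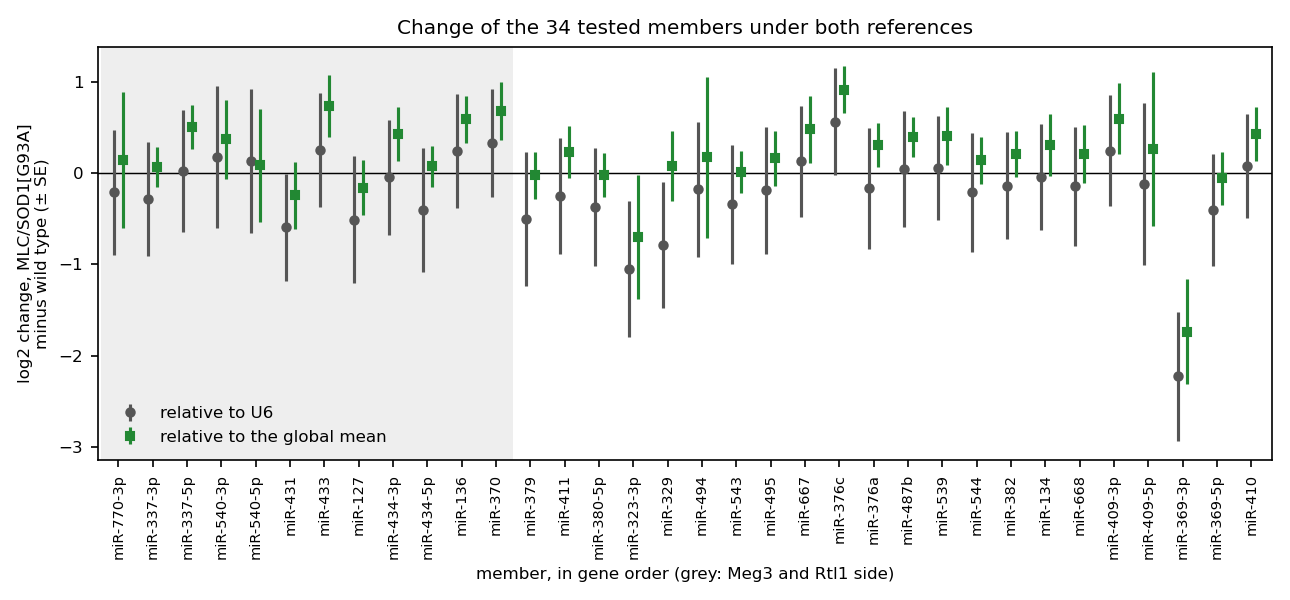
Log2 change between MLC/SOD1[G93A] and wild type, with its standard error from limma, for the 34 tested members in gene order, relative to U6 (circles) and to the global mean (squares). Grey marks the Meg3 and Rtl1 side. Most circles lie within 1 standard error of 0, and miR-369-3p lies lowest under both references.

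Per sample, the 22 members measured everywhere were described by their median relative to the global mean. It was -0.52, -0.69, -0.85 and -0.59 in wild type samples 1 to 4, and -0.18, -0.20, 0.05 and -0.65 in samples 5a, 6a, 7a and 8a. Samples 5a, 6a and 7a lay above every wild type sample, while sample 8a lay within the wild type range. No p is given for this median, since the members were chosen as a list.

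Over the 25 settings tried, only 3 of the 34 tested members kept 1 direction in every setting that tested them: miR-369-3p, which was lower, and miR-376c and miR-370, which were higher. The settings reuse the same samples and are not independent. Several of them, such as a different test, leave the log2 change as it was, so these counts are a description and no separate support. miR-369-3p had the largest change. Its log2 expression relative to U6 was -14.74, -13.34, -13.98 and -14.12 in wild type samples 1 to 4. In samples 6a, 7a and 8a it was -14.75, -17.02 and -17.04, and sample 5a gave a Ct of 37.57, which is over the limit and missing. The groups did not overlap, but wild type sample 1 and sample 6a lay at almost the same level.

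Wild type samples averaged -14.04 ± 0.58 (SD, n = 4) for miR-369-3p, and the 3 transgenic samples averaged -16.27 ± 1.32 (SD), a log2 change of -2.23 with a standard error of 0.71. The unadjusted p in limma was 0.0056 and the adjusted p was 0.640. The two-sided exact permutation test over samples gave p = 0.0286, the smallest that 4 against 3 samples allow. Sample 8a sits at a Ct of exactly 35, on the limit. Without wild type sample 1 the adjusted p in limma was 0.0348, the only adjusted call of a member under any of the alternatives, whose adjusted p otherwise went up to 0.998. In that setting 15.9% of all miRNAs were lower before adjustment. The change was negative under each of the 23 settings that tested it, between -2.99 and -1.13, and these settings are not independent. miR-369-3p is also on the study's list of lowered miRNAs, which was chosen on these samples, so its presence there is no independent evidence.

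The other arm of the same hairpin had a smaller change. miR-369-5p had a log2 expression of -14.80, -13.24, -13.74 and -13.36 in wild type and -14.06, -13.45, -15.32 and -13.93 in samples 5a to 8a, and the groups overlapped. Its log2 change was -0.41 with a standard error of 0.61 (adjusted p in limma 0.975). The study's list of lowered miRNAs, chosen on these samples, holds both arms.

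Where both arms of a hairpin are on the card, the difference between their Ct values within a sample needs no reference RNA. Both arms were present for 7 hairpins, and 4 could be tested. For miR-369, the Ct of the 5p arm minus that of the 3p arm was 0.06, -0.10, -0.24 and -0.76 in wild type samples 1 to 4 and -1.30, -1.70 and -3.11 in samples 6a, 7a and 8a. All 3 transgenic samples lay below all 4 wild type samples, so the 3p arm read later against the 5p arm there than in wild type. The size of each distance includes any difference between the assays. The 3p wells of samples 6a, 7a and 8a had a Ct of 33.25, 33.90 and 35, near the limit. They are the same wells that gave the change of miR-369-3p above, so the arm difference is not separate support. The difference between the groups was -1.78 cycles, with p = 0.0286 in the two-sided exact permutation test and 0.114 after adjustment over the 4 hairpins. This exact p is the smallest that 4 against 3 samples allow. With the exact p of the other hairpins at 0.200 or more, the adjusted p could not be lower. Counting wells up to a Ct of 40, which adds sample 5a, made the difference -2.52, and the adjusted exact p was again 0.114. The smallest exact p for 4 against 4 samples is also 0.0286. Leaving out each sample in turn gave differences from -2.15 to -1.24, with the latter found without sample 8a.

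The miR-434 hairpin kept its arms at a steady distance. The Ct of miR-434-5p minus that of miR-434-3p was 6.59, 6.17, 5.96 and 6.21 in wild type and 6.37, 6.43 and 6.97 in samples 5a, 6a and 7a, a mean of 6.39 ± 0.33 (SD, n = 7). The 3p arm was thus the more abundant reading in every sample that measured both, and the groups differed by 0.36 cycles (exact permutation p = 0.200, adjusted 0.343). The distance includes any difference between the assays.

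For miR-337 the arms stood close together, at 0.35, 0.01, 0.49 and -0.09 in wild type and -0.09, 0.08 and -0.51 in samples 5a, 6a and 7a. The groups overlapped and differed by -0.36 cycles (exact permutation p = 0.257, adjusted 0.343). For miR-409 the 5p arm was later by 5.67, 3.15 and 3.19 cycles in wild type samples 2 to 4 and by 3.40, 5.90 and 4.64 in samples 5a, 6a and 8a. These groups overlapped too and differed by 0.64 cycles, with an exact permutation p of 0.5, where 3 against 3 samples cannot go below 0.1.

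**Figure D4:**
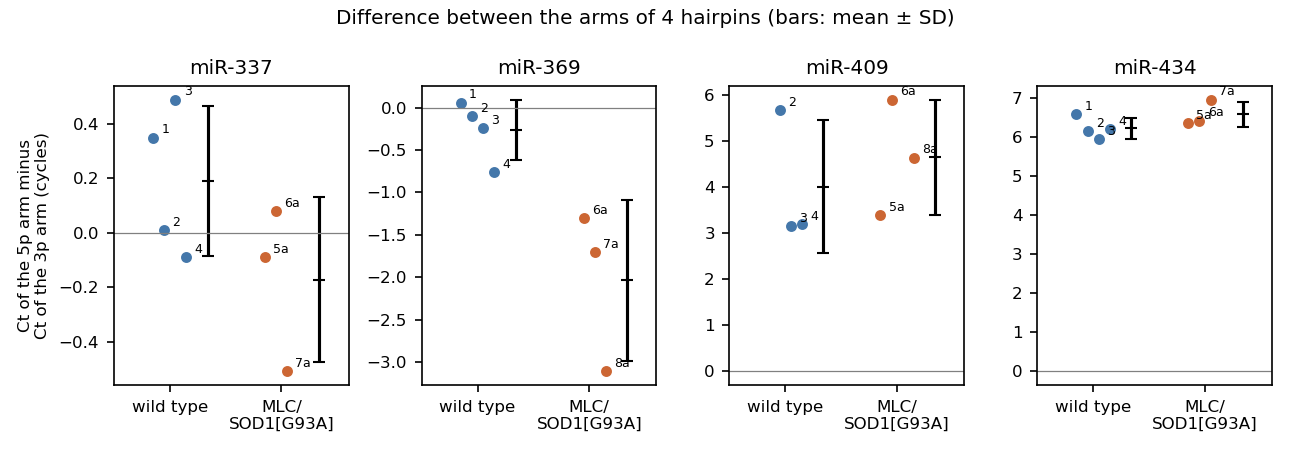
Ct of the 5p arm minus Ct of the 3p arm, in cycles, for 4 hairpins, with 1 point per sample that measured both arms and bars for the mean ± SD. The vertical axes differ between panels. For miR-369 the 3 MLC/SOD1[G93A] points lie below the 4 wild type points, and for miR-434 all points lie between 5.96 and 6.97.

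The member with the highest change was miR-376c, from the long hairpin array. Relative to U6 it was -12.15, -11.68, -11.06 and -10.69 in wild type and -10.43, -10.46, -11.71 and -10.72 in samples 5a to 8a. The groups overlapped, since samples 7a and 8a lay within the wild type range, and the change was 0.56 with a standard error of 0.59 (adjusted p in limma 0.975).

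Relative to the global mean, miR-376c was -0.60, -1.40, -1.39 and -0.81 in wild type and -0.15, -0.09, 0.10 and -0.41 in samples 5a to 8a. There all 4 transgenic samples lay above all 4 wild type samples. The change was 0.91 with a standard error of 0.26, with an unadjusted p in limma of 0.0062, an adjusted p of 0.427 and an exact permutation p of 0.0286. Its change was positive in all 25 settings, which are not independent, from 0.31 to 1.5.

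miR-136, antisense to Rtl1, was, with miR-376c, 1 of the 2 members called higher before adjustment against the global mean. On that scale it was 1.99, 2.49, 1.45 and 2.08 in wild type and 2.46, 2.61, 2.54 and 2.75 in samples 5a to 8a, and only wild type sample 2 reached into the transgenic range. The change was 0.59 with a standard error of 0.26 (unadjusted p in limma 0.0461, adjusted 0.515). Relative to U6, miR-136 changed by 0.24 with a standard error of 0.63, and there wild type sample 1 (-9.56) and sample 7a (-9.27) lay over 1 cycle below the other 6 samples.

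miR-337-5p, also antisense to Rtl1, did not overlap between the groups relative to the global mean. It was -2.97, -3.16, -3.34 and -2.78 in wild type and -2.66, -2.62 and -2.40 in samples 5a, 6a and 7a, while sample 8a had no Ct. The change was 0.50 with a standard error of 0.25 (unadjusted p in limma 0.072, adjusted 0.572), and relative to U6 it was 0.03 with a standard error of 0.67. With the missing well of sample 8a set to the limit of 35, the change relative to U6 was -0.89.

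miR-370, the last gene of the Meg3 and Rtl1 side, was positive in all 25 settings, which are not independent, from 0.09 to 1.27. Relative to U6 it was -11.99, -11.77, -10.97 and -10.32 in wild type and -10.48, -10.68, -11.66 and -10.91 in samples 5a to 8a. The groups overlapped, and the change was 0.33 with a standard error of 0.59 (adjusted p in limma 0.975). It was described because of this one direction, seen after the values were known.

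**Figure D5:**
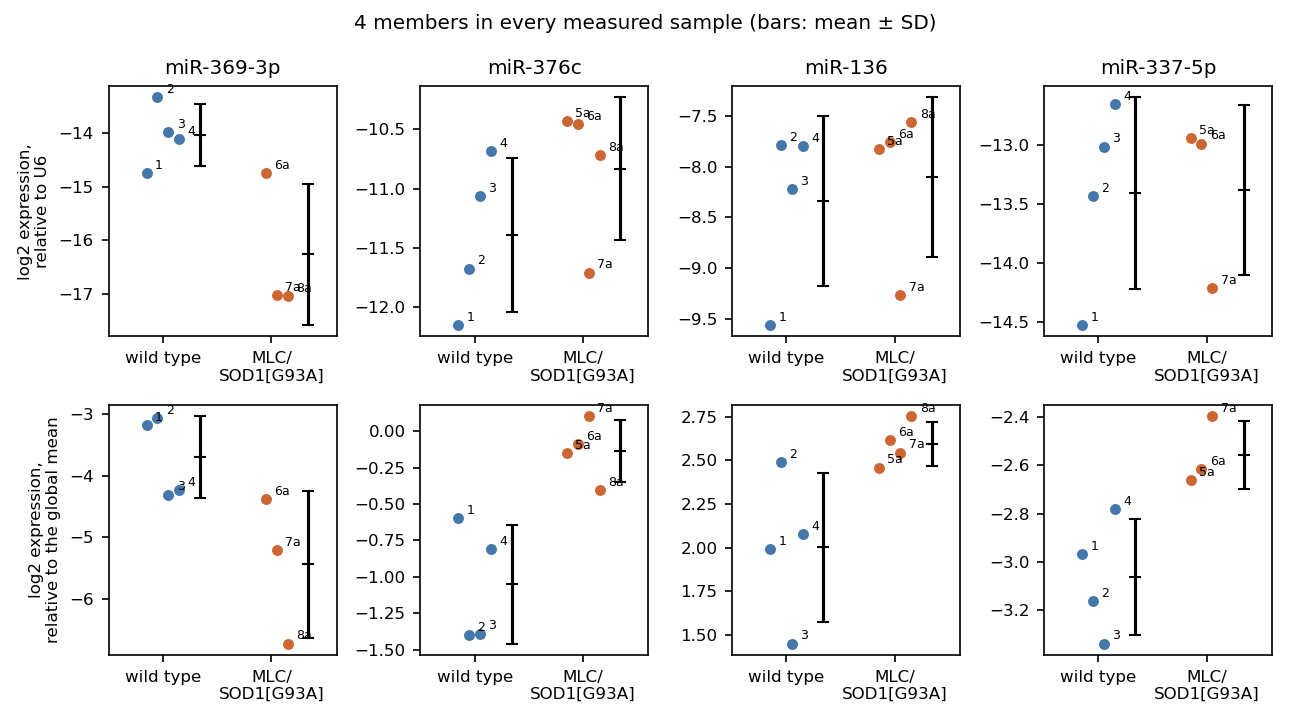
Log2 expression of miR-369-3p, miR-376c, miR-136 and miR-337-5p in each sample that measured them, relative to U6 (upper row) and to the global mean (lower row), with bars for the mean ± SD. Numbers beside the points name the samples. miR-369-3p is lower in MLC/SOD1[G93A] in both rows, and miR-376c is separated between the groups in the lower row.

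The contrast between the Meg3 and Rtl1 side and the other members was small. Relative to U6 the median change was -0.01 over the 12 tested members of the Meg3 and Rtl1 side (6 below 0 and 6 above) and -0.17 over the 22 others (16 below 0 and 6 above). Relative to the global mean the medians were 0.26 and 0.21. Within each sample, the median level of the 6 fully measured members of the Meg3 and Rtl1 side minus that of the 16 fully measured others was -0.26, -1.10, -0.90 and 0.17 in wild type and -0.68, -1.06, -0.37 and -0.53 in samples 5a to 8a. The groups overlapped, at -0.52 ± 0.58 (SD, n = 4) and -0.66 ± 0.30 (SD, n = 4).

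For the most abundant members, no change relative to U6 was larger than its standard error. miR-434-3p was -4.90, -4.31, -3.68 and -3.73 in wild type and -3.79, -4.07 and -4.74 in samples 5a, 6a and 7a relative to U6, a change of -0.05 with a standard error of 0.63. miR-127 was -8.10, -6.09, -5.92 and -6.21 in wild type and -6.14, -6.43, -8.78 and -7.00 in samples 5a to 8a, a change of -0.51 with a standard error of 0.69. In both, the groups overlapped, and wild type sample 1 and sample 7a were the lowest of their groups. Relative to the global mean, miR-434-3p changed by 0.43 with a standard error of 0.30 and miR-127 by -0.16 with a standard error of 0.30. Sample 8a had no Ct for miR-434-3p, and with that well set to the limit of 35 its change relative to U6 was -3.26 with a standard error of 2.36.

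The next members in level after miR-127, apart from miR-136 given above, also changed by less than their standard errors relative to U6. miR-382 was -8.19, -7.11, -7.04 and -6.84 in wild type and -6.93, -7.48, -8.25 and -7.07 in samples 5a to 8a, a change of -0.14 with a standard error of 0.59. miR-411 was -9.27, -8.70, -7.98 and -8.29 in wild type and -8.47, -8.46 and -9.49 in samples 5a, 6a and 7a, a change of -0.25 with a standard error of 0.64. miR-410, at the far end of the array, was -9.84, -9.33, -9.30 and -8.86 in wild type and -8.83, -9.09, -10.10 and -8.99 in samples 5a to 8a, a change of 0.08 with a standard error of 0.57. All of these groups overlapped, and the adjusted p in limma was 0.975 for each. With the global mean as the reference the changes were 0.21 for miR-382, 0.23 for miR-411 and 0.43 for miR-410, with standard errors of 0.25, 0.28 and 0.30, and with the missing well of sample 8a set to the limit the change of miR-411 relative to U6 was -2.31 with a standard error of 1.57.

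miR-323-3p had the second lowest change among the members, -1.05 with a standard error of 0.75 relative to U6. It was -11.53, -9.64, -9.25 and -9.29 in wild type and -9.90, -9.88, -11.12 and -13.02 in samples 5a to 8a, so the groups overlapped and sample 8a was the lowest. Relative to U6 the change was -0.37 without sample 8a and -1.59 without wild type sample 1. Relative to the global mean the change was -0.70 with all samples and 0.07 without sample 8a. It was named after its values were seen.

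The study's list of lowered miRNAs, chosen on these samples, holds 2 members besides the arms of miR-369: miR-329 and miR-544, from the long hairpin array. miR-329 was -15.11, -15.58 and -15.90 in wild type samples 2 to 4 and -15.99, -17.08 and -15.87 in samples 5a, 7a and 8a, a change of -0.79 with a standard error of 0.69. miR-544 was -14.19, -12.07, -11.79 and -11.65 in wild type and -12.45, -12.16, -13.55 and -12.38 in samples 5a to 8a, a change of -0.21 with a standard error of 0.66. For both the groups overlapped, and relative to the global mean the changes were 0.08 and 0.14.

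Other groups of miRNAs are given for scale. The 4 neuron markers on the card, miR-124, miR-9, miR-128a and miR-218, were measured in every sample. Their median change was -0.50 against U6 and -0.15 against the global mean, all 4 below 0 and none past the test. Of all miRNAs, 77.5% lay below 0 against U6 and 46.3% against the global mean, with medians of -0.31 and 0.04. The other large imprinted cluster, within Sfmbt2, had 6 tested miRNAs of 9 on the card, with medians of -0.12 and 0.25. These medians are descriptions and carry no test against the members.

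Markers of other cell types were read in the same samples. The summed level of the neuron markers, relative to the global mean, ran from 6.5 to 6.79 in wild type and from 6.12 to 6.74 in MLC/SOD1[G93A]. That of 2 oligodendrocyte markers ran from 0.53 to 0.97 and from 0.08 to 0.94, and that of 5 leukocyte and microglia markers, of which 4 were measured in all samples, from 3.76 to 4.68 and from 3.86 to 4.20. Red blood cell markers (2 on the card, both in all samples) ran from 2.20 to 3.45 and from 1.99 to 3.16, and 3 skeletal muscle markers from 3.90 to 5.31 and from 3.76 to 5.41. Of 7 markers of liver, pancreas and epithelium, 1 was measured in all samples, and miR-122, which defines liver, was never measured. Every one of these ranges overlapped between the groups. Single markers are given beside these sums, relative to the global mean. Of the leukocyte list, miR-223 was lower by a log2 change of -1.45 with no overlap (unadjusted p in limma 0.0063, adjusted 0.427). Over all 227 miRNAs on that scale, 5.73% were lower at an unadjusted p under 0.05 in limma. With no overlap 2.2% were lower, and after adjustment 0% were called. On the same scale miR-338-3p, an oligodendrocyte marker, changed by -0.80 (unadjusted p in limma 0.0476, adjusted 0.515), and miR-451, of red blood cells, by -1.12 (adjusted p in limma 0.635). The other tested markers of these lists did not all go the same way. In the leukocyte list miR-142-3p changed by -0.61, miR-150 by 0.20 and miR-155 by 0.14. The oligodendrocyte marker miR-219 changed by -0.11 and the red blood cell marker miR-486 by 0.09. The part of these markers in the values of the members was not tested.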

How the data were processed

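Total RNA of 8 ventral lumbar spinal cord samples, 4 for each genotype, was reverse transcribed and read by the authors on TaqMan Array Mouse MicroRNA Card A. The authors deposited the Ct of each assay, an unnormalized threshold cycle with wells over 35 still present. They also deposited log2 values, the Ct minus the mean of 4 U6 wells of the sample, which the Ct table gave back within 0.01 for 2063 values. A deposited table of fold ratios between the groups holds the authors' own comparison and was not used. RefSeq names and sequences are of GRCm38.p6, and the build used by the authors is not given in the sources used here.

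Ct over 35 and wells without a Ct were treated as missing. Log2 expression was the mean U6 Ct minus the Ct. All miRNAs with no more than 1 missing sample in either group were fitted together, without covariates, in limma 3.58.1 (R 4.3.3), with Benjamini-Hochberg adjustment over the 227 tested, and the members were read from that fit. Where a well was missing, the fit used the remaining samples. Single values and arm differences were compared by two-sided exact permutation tests over samples. The script for the fit was tested on simulated data. The members and lists were chosen with earlier results of these data known. Values in every sample are given for members with an unadjusted p under 0.05 or no overlap under U6 or the global mean, for the 6 highest, for members on the study's list and for hairpin arms, and the others were added after their values were seen. Ct values carry no count of molecules, so the number of samples limits the precision. The labels number the samples as replicates and do not say that each came from a separate animal, and p-values measure the spread between these samples. Other reference RNAs, Ct limits, treatments of missing wells, tests and leaving out each sample were tried.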

Additional observations from a re-analysis of the deposited data

Results flagged for a closer look

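Of 37 groups of 4 samples looked at, 4 held a sample far from the other 3, where chance gives about 1 in 20 groups. The groups held log2 expression of described members relative to U6, differences between hairpin arms and summaries over the members. All 4 that were flagged were on the scale of log2 expression relative to U6. The groups share samples and are not independent. In wild type sample 1, miR-127 was -8.10 against -6.21 to -5.92 in the other 3, miR-544 was -14.19 against -12.07 to -11.65, and miR-323-3p was -11.53 against -9.64 to -9.25. In sample 7a, miR-136 was -9.27 against -7.82 to -7.56 in the other 3 samples of its group. These are the same samples that had the lowest medians over all miRNAs relative to U6.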

How the results depend on the processing

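The labels pair no wild type sample with a MLC/SOD1[G93A] sample, so no paired analysis was made. The count of members called after adjustment was 0 under every setting except leaving out samples, where it ranged from 0 to 1 (1 without wild type sample 1). Relative to U6, members lower at an unadjusted p under 0.05 numbered 1, where 2.2% of all miRNAs were lower. They also numbered 1 relative to snoRNA202 (12.3% of all miRNAs), relative to the global mean (5.73%) and with no reference (5.29%). On leaving out samples they ranged from 1 to 2, with 2 without wild type sample 1, where 15.9% of all miRNAs were lower. They numbered 0 relative to Y1 (0% of all miRNAs) and by the exact Mann-Whitney test (0%), which cannot pass with 4 against 3 samples. They also numbered 0 with a Ct limit of 32 (2.27%) and with only miRNAs measured in all samples (1.58%), both of which leave miR-369-3p untested. Members higher numbered 0 relative to U6 (0.441% of all miRNAs), 2 relative to the global mean (3.52%) and 2 relative to the global mean without sample 8a (2.64%). The last of these settings was added after seeing the data. Higher members numbered 1 relative to snoRNA135 (3.08% of all miRNAs) and 17 relative to Y1 (50% of the members and 29.5% of all miRNAs). Relative to the mean of snoRNA135, snoRNA202 and Y1 they numbered 5 (6.61% of all miRNAs), and with no reference 1 (0.881%). The mean Ct of Y1 was 25.76 in wild type and 26.60 in MLC/SOD1[G93A], and relative to it the median change was 0.80 over the members and 0.64 over all 227 miRNAs.

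Of the log2 changes of named members under the alternatives, 216 kept direction and side of the threshold, 1 passed it and 40 reversed sign. Alternatives that change only the test leave the log2 change as it was, so the direction was fixed there. Relative to the global mean those that reversed were miR-434-3p (0.43), miR-382 (0.21), miR-329 (0.076) and miR-544 (0.14). Relative to the global mean without sample 8a they were miR-434-3p (0.40), miR-382 (0.19), miR-329 (0.054), miR-544 (0.15) and miR-323-3p (0.073). Relative to snoRNA135 they were miR-369-5p (0.085), miR-434-3p (0.38), miR-382 (0.35), miR-329 (0.21) and miR-544 (0.28). Relative to Y1 they were miR-369-5p (0.53), miR-434-3p (1.14), miR-127 (0.43), miR-382 (0.80), miR-329 (0.70) and miR-544 (0.73). Relative to the mean of the 3 control RNAs they were miR-369-5p (0.06), miR-434-3p (0.49), miR-382 (0.33), miR-329 (0.21) and miR-544 (0.26). miR-337-5p was -0.11 with the median of the U6 wells and -0.89 with missing wells set to the limit, and miR-434-3p was 0.053 with no reference. On leaving out each sample, changes ranged from -1.02 to 0.055 for miR-127, -0.17 to 0.63 for miR-136, -0.35 to 0.44 for miR-337-5p, -0.30 to 0.22 for miR-434-3p, -0.44 to 0.13 for miR-382 and -0.80 to 0.094 for miR-544. The cause of these reversals was not tested.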

Other observations

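Rat assays on the same card that carry a miRNA number of the list were outside the comparison of the mouse assays. Of 6 such assays, 2 were measured in all 8 samples and 3 were never measured. The rat miR-381 assay gave a Ct of 30.90, 31.57, 31.00 and 30.18 in wild type and 32.77, 31.21, 30.75 and 30.85 in samples 5a to 8a, a log2 change of -0.58 relative to U6 with a standard error of 0.61. The mouse miR-381 assay gave a Ct of 35 or less in only 2 of these samples, at 33.73 and 1.07. The rat miR-758 assay gave a Ct of 31.95, 31.90, 30.97 and 31.18 in wild type and 32.84, 31.68, 32.79 and 31.49 in samples 5a to 8a, a log2 change of -0.80 with a standard error of 0.68. For both assays the groups overlapped.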
